A study of Mus musculus with 12 samples.

Results

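The cytosolic ribosomal protein genes of mouse liver were described across 4 groups of mice that lacked apolipoprotein E and mouse apolipoprotein A-I. Rows were taken by name, as symbols that begin with Rpl or Rps followed by a digit or p, without the S6 kinase genes and without names carrying -ps or Rik. This gave 85 of the 23284 rows of the table, and 82 of them had a mean of at least 1 FPKM (fragments per kilobase of transcript, scaled to the mapped fragments of the library) over the 12 libraries. The 3 rows left out were Rpl3l at a mean of 0.0704 FPKM, Rpl39l at 0.0609 FPKM and Rpl10l at 0 FPKM, while Rpl21 at 1.31 FPKM and Rps27 at 1.60 FPKM were the lowest rows kept. The 82 rows hold 43 genes of the large subunit, 30 of the small subunit, the 3 stalk genes, 5 duplicated family members (Rpl7l1, Rpl22l1, Rpl36al, Rps27l and Rps4y2, now named Rps4l) and Rps19bp1. The last of these encodes a protein that binds Rps19 and is not itself a ribosomal protein. Rpsa, Fau and Gnb2l1 (Rack1) are among the genes of ribosomal proteins whose names fall outside the pattern.

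Every mouse was Apoa1-/- Apoe-/- (DKO), so no group had a wild-type lipoprotein background. DKO/hA1 mice carried a human APOA1 transgene in addition, and the promoter that drives it, as well as sex and age, are not given in the sources used here. On chow there were 4 DKO and 2 DKO/hA1 libraries, and on Western diet 3 of each genotype, each from liver after 22 weeks on a normal laboratory diet (chow) or a high-fat Western diet. High-density lipoprotein is built around apolipoprotein A-I, and the design asks how its presence shapes the liver transcriptome on either diet. Nothing in the labels says whether libraries of a group came from separate animals, so the p-values measure only the spread between these samples.

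A ribosome is built from a small subunit, which reads the messenger RNA, and a large subunit, which joins amino acids. Each of its proteins is present in about 1 copy, except the stalk proteins P1 and P2, which recruit translation factors. Messages of ribosomal proteins begin with a run of pyrimidines directly after the cap, the terminal oligopyrimidine (TOP) motif, through which mTOR signalling and LARP1 control their translation. That control acts mostly on translation, which an RNA level does not show. Mammalian genomes also carry many processed pseudogenes of these genes, intron-free copies of the spliced message, so short reads can match both the gene and its copies.

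The copies bear directly on the values, and 4 chosen pairs show how little sequence can separate a gene from a copy. Each line below is a stretch of coding sequence read 5′ to 3′ from GENCODE release M21 transcripts (build GRCm38), and capitals mark the bases at which the pair differs. Rpl31 lies at chr1:39367842-39371911 on the plus strand and its processed pseudogene Rpl31-ps12 at chr16:16819749-16820123 on the minus strand. They differ at 4 of 375 coding bases, 3 of them in the 90 bases shown.
Rpl31: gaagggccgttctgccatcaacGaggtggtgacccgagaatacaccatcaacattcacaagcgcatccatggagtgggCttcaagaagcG
Rpl31-ps12: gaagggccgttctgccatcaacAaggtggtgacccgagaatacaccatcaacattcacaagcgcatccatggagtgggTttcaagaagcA
Rpl34 lies at chr3:130726831-130730398 on the minus strand and Rpl34-ps1 at chr6:71124610-71124963 on the plus strand. This pair differs at 2 of 351 coding bases.
Rpl34: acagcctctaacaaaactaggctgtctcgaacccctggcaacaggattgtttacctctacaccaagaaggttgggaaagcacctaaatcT
Rpl34-ps1: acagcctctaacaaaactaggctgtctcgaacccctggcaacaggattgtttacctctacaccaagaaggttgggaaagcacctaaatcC
Rpl35 lies at chr2:39001580-39005624 on the minus strand and Gm2000, annotated as protein-coding, at chr1:156366040-156366484 on the plus strand. Of 369 coding bases, 1 differs.
Rpl35: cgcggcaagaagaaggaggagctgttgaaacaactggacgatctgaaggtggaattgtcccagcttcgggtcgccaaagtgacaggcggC
Gm2000: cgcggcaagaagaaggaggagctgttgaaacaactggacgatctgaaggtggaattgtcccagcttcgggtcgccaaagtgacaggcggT
Rpl26 lies at chr11:68901583-68906989 on the plus strand and Gm15772 at chr5:3236431-3236868 on the plus strand. Here 2 of 435 coding bases differ.
Rpl26: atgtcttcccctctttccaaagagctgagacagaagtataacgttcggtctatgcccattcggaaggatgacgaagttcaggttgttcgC
Gm15772: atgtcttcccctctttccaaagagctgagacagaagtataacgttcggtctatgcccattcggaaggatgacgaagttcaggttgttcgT

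The same held across the family. A gene's coding sequence was divided into all overlapping 36-base words, and each word was looked up in the transcripts of other genes. Of the 81 members matched to a coding transcript, 32 had every word in at least 1 other gene, 53 had at least 90% of their words shared, and 7 had under 50%. The median was 95.8% with 36-base words and 91.3% with 50-base words. Among the 7 genes with the least sharing were Rps19bp1 (0%), Rpl8 (10.5%), Rps3 (14.8%), Rpl4, Rpl7l1 and Rpl22. Across genes, the mean level and the shared percentage had a Spearman coefficient of -0.04 over these 81 members, a description in which genes are not independent. A row of the table that shares at least 30% of a member's words was treated as a copy row, and 13 members had at least 1, including Rplp2 with Wdr89.

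Some sequence features were more frequent at start sites of members than of all genes, though most were not common to all members. RefSeq windows of build GRCm38.p6 were matched for 61 members and for 27025 genes in all, some with more than 1 start. A run of at least 8 pyrimidines (C or T) within 20 bases of a start was found in 30 of the 61 members (49.2%) and in 18.4% of all genes, with a median longest run of 7 against 5 bases. From 250 bases before to 50 after the start, on both strands, CCGGAAG was found in 39.3% of members against 9.93% of genes, GGGCGG in 63.9% against 38.2% and AAGATGGC in 9.84% against 3.19%. These are matches of letters, not measured binding sites. CCGGAAG ends in the letters with which AAGATGGC begins, so their matches can overlap, and its reverse complement can overlap a pyrimidine run. Runs were short in other members, at 3 bases in Rpl10, 4 in Rpl26 and 7 in Rplp0. A second start of Rpl34, with a run of 8, is not shown. Windows of 40 bases around a start are shown for Rpl31, Rpl34, Rpl35 and Rps18, which the results below turn on. Rplp2 of the stalk is added. The longest pyrimidine run is in capitals, with at least 10 bases in each window shown. The windows lie at chr1:39367831-39367870 (plus strand), chr3:130730318-130730357 (minus strand), chr2:39005112-39005151 (minus strand), chr17:33955646-33955685 (minus strand) and chr7:141447631-141447670 (plus strand).
Rpl31: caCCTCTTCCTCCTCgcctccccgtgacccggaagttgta
Rpl34: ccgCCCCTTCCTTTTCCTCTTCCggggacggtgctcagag
Rpl35: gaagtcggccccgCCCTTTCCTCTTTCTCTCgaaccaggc
Rps18: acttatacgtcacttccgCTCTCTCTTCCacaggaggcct
Rplp2: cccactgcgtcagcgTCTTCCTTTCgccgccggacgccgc

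Several facts of the libraries bear on all values. Relative depth, estimated from the steps between low values, lay between 0.514 (DKO chow 2) and 1.31 (DKO/hA1 Western diet 2) of DKO chow 1, and the read totals are not used here. The Apoa1 row was at 30.4 to 77.4 FPKM in DKO and 122 to 239.8 FPKM in DKO/hA1 libraries, without overlap, and the Apoe row was at 12.9 to 89.8 FPKM. Whether these fragments come from the disrupted genes or the transgene was not tested. Of 10 hepatocyte markers, 9 were tested. The row left out, Alb, which encodes albumin, was listed at 0 in 9 libraries and at 8424 to 23645 FPKM in DKO Western diet. Neutrophil markers (11 of 12 listed names in the table) summed to 29.1 to 89.6 FPKM in DKO chow, 501 to 4218 in DKO Western diet, 39.7 to 75.9 in DKO/hA1 chow and 108 to 4477 in DKO/hA1 Western diet, highest in DKO Western diet 2 and DKO/hA1 Western diet 3. In those libraries the 10 highest rows took 28.4% and 27.4% of all FPKM, against 12.7 to 19.7% elsewhere. In whole liver, fewer cells of a type and less RNA per cell cannot be told apart.

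Ribosomal protein messages were among the abundant messages of these livers. The median of the members' mean levels was 130.2 FPKM, against 6.36 FPKM over the 11546 genes tested, and 53 members reached 100 FPKM. Large subunit genes had a median of 121 FPKM and small subunit genes 162 FPKM. Together the members took 2.08 to 2.99% of all FPKM in a library. That share was 2.65% ± 0.32 (SD, n = 4) in DKO chow, 2.26% ± 0.20 (SD, n = 3) in DKO Western diet, 2.57% ± 0.14 (SD, n = 2) in DKO/hA1 chow and 2.69% ± 0.28 (SD, n = 3) in DKO/hA1 Western diet. The groups overlapped, and the share depends on the few rows that fill each library's total.

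**Figure D1:**
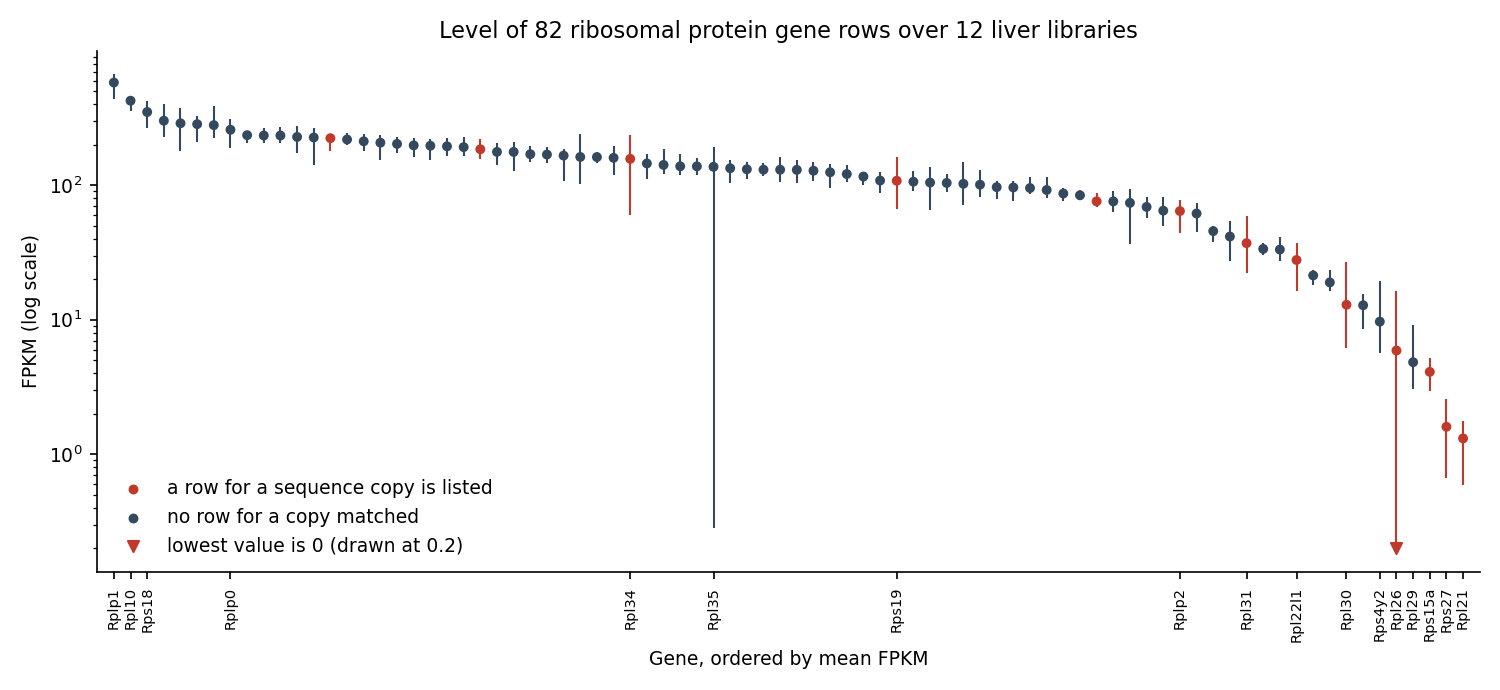
Mean FPKM (points, log scale) and the range over 12 libraries (lines) of the 82 rows, ordered by mean; red marks rows with a listed sequence copy, and only rows described in the text are labelled. Most rows sit within a narrow range above 30 FPKM, while Rpl35 spans 0.284 to 191 FPKM and Rpl26 reaches 0, drawn as a triangle.

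At the top stood Rplp1, a stalk protein that recruits elongation factors, with a mean of 579.6 FPKM. Its values were 546, 439, 556 and 657 FPKM in DKO chow, 584, 570.1 and 666 in DKO Western diet, 604 and 593 in DKO/hA1 chow, with 599, 525 and 616 in DKO/hA1 Western diet. DKO chow held both the lowest library and the second highest. Rpl10, a large subunit protein placed late in assembly, followed at a mean of 425 FPKM, with 444, 357, 421 and 388 FPKM in DKO chow, 420.4, 461 and 431 in DKO Western diet, 421 and 457 in DKO/hA1 chow, with 449, 408 and 439.5 in DKO/hA1 Western diet. Rps18, in the head of the small subunit, had 373, 264, 382 and 369.8 FPKM in DKO chow, 323, 419.6 and 377 in DKO Western diet, 310.4 and 339.6 in DKO/hA1 chow, with 391, 323 and 327 in DKO/hA1 Western diet. For both, DKO chow 2 was the lowest library and the groups overlapped.

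The stalk genes sat at unequal levels. Rplp0, the base on which P1 and P2 are mounted, had a mean of 258 FPKM, with 269, 189.9, 257 and 274 FPKM in DKO chow, 244, 294 and 308 in DKO Western diet, 256 and 232 in DKO/hA1 chow, with 258, 241 and 279 in DKO/hA1 Western diet. DKO chow 2 was lowest and DKO Western diet 3 highest. Rplp2 had a mean of 64.2 FPKM. Rplp2 was at 59.3, 44.4, 64.6 and 72.2 FPKM in DKO chow, 72.8, 64.9 and 67.4 in DKO Western diet, 69.7 and 55.3 in DKO/hA1 chow, with 78.1, 60.2 and 61.9 in DKO/hA1 Western diet. Its level overlapped between all groups. A separate row named Rplp2-ps1 had a mean of 102 FPKM, above Rplp2 itself. It was matched by name only, and whether fragments of Rplp2 were assigned to it was not tested. No stalk gene changed in any of the 4 comparisons (limma adjusted p from 0.777 upwards), and the 95% interval of the diet effect in DKO was -0.19 to 0.44 for Rplp0, -0.24 to 0.40 for Rplp1 and -0.20 to 0.47 for Rplp2, on the log2 scale.

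In DKO mice the ribosomal protein genes lay close to their chow level on Western diet. Changes are given as log2 of FPKM + 1 after scaling, which understates the change of low rows. By limma, with Benjamini-Hochberg adjustment over all 11546 genes at 0.05, 0 of 82 members were called, where 0.113% of all genes were. At an unadjusted p under 0.05 there were 6 members, where 11.8% of all genes were. The median change was 0.05 over members, with 58 above 0, and -0.0041 over all genes. It was 0.04 for the 43 large subunit genes and 0.06 for the 30 small subunit genes. For 75 members the 95% interval lay within ±1, and for 67 within ±0.5.

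That median depended on scaling: with equal FPKM totals it was -0.17 in DKO, where the median of all genes moved to -0.19. Relative to all genes, the members stood at 0.06 in the first case and 0.02 in the second. The library DKO chow 2 also weighed on it, and without that library the median was 0.02. Macrophage and Kupffer cell markers were higher on Western diet in 12 of 12 tested genes without any passing the adjusted test in DKO. They summed to 321 to 743 FPKM in DKO chow and 1012 to 1342 in DKO Western diet, and their part in the members' values was not tested.

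In this comparison the smallest p-values among members belonged to Rpl31, described below, and Rpl29, a large subunit protein. Rpl29 stood at 4.35, 3.91, 4.14 and 4.22 FPKM in DKO chow, 9.09, 8.21 and 5.13 in DKO Western diet, 3.23 and 4.87 in DKO/hA1 chow, with 4.02, 3.04 and 3.82 in DKO/hA1 Western diet. All 3 DKO Western diet libraries were above every other library. The log2 difference was 0.63 ± 0.17 (SE) between diets in DKO, with a limma adjusted p of 0.218. Between genotypes on Western diet it was -0.80 ± 0.19, with a limma adjusted p of 0.696, so neither passed. Of the coding words of Rpl29, 98.0% occur in other genes.

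Rps19, a small subunit protein needed for maturation of the small subunit RNA, had the next smallest p. Its level was 101, 66.6, 105 and 102 FPKM in DKO chow, 163, 121 and 122 in DKO Western diet, 94.0 and 102 in DKO/hA1 chow, with 113, 103 and 101 in DKO/hA1 Western diet. The DKO groups did not overlap between diets, whereas the DKO/hA1 groups did. Other members, such as Rpl29, also did not overlap between diets in DKO, and the share over all genes was not taken. The difference in DKO was 0.47 ± 0.16 (limma adjusted p 0.299), and the diet by genotype term was -0.36 ± 0.25 (limma adjusted p 0.965). Its copy row Rps19-ps3, at 32.1 to 39.9 FPKM in DKO chow and 45.1 to 55.6 in DKO Western diet, did not overlap either.

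Rpl23a and Rpl30, both of the large subunit, and the duplicated gene Rpl22l1 made up the rest of the 6. Rpl23a was at 63.3, 49.7, 61.0 and 54.4 FPKM in DKO chow, 66.3, 73.8 and 81.1 in DKO Western diet, 61.3 and 69.1 in DKO/hA1 chow, with 66.9, 62.3 and 67.1 in DKO/hA1 Western diet, without overlap between diets in DKO (0.30 ± 0.11, limma adjusted p 0.342). Rpl30 was at 8.05, 9.56, 13.3 and 8.65 FPKM in DKO chow, 26.8, 11.4 and 26.6 in DKO Western diet, 6.19 and 10.1 in DKO/hA1 chow, with 15.1, 6.66 and 12.7 in DKO/hA1 Western diet, with overlap (0.92 ± 0.33, limma adjusted p 0.327). Its copy row Gm12191 was far higher, at 118 to 177 FPKM over all libraries, and the sum of both differed by 0.06 ± 0.12 between diets in DKO (limma adjusted p 0.898). Gm12191 makes up most of that sum, so the sum cannot show where fragments of Rpl30 were assigned. Rpl22l1 was at 37.2, 37.4, 26.0 and 23.4 FPKM in DKO chow, 26.2, 24.1 and 16.4 in DKO Western diet, 22.2 and 36.1 in DKO/hA1 chow, with 29.9, 24.1 and 30.7 in DKO/hA1 Western diet (-0.52 ± 0.23, limma adjusted p 0.417). Its copy row Gm15421 was at 18.2 to 26.6 FPKM in DKO chow and 8.74 to 12.9 in DKO Western diet, without overlap, and the sum of both differed by -0.72 ± 0.23 (limma adjusted p 0.264).

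With human APOA1, Western diet was associated with a call for 1 of 82 members, Rpl35, where 1.43% of all genes were called. At an unadjusted p under 0.05 there were 2, Rpl35 and Rpl31, where 13.5% of all genes were. The members' median was 0.04, with 56 above 0, against 0.00 over all genes, and with equal totals it was -0.06 where all genes moved to -0.08. For 76 members the 95% interval lay within ±1. Macrophage and Kupffer markers were higher on Western diet in 12 of 12 tested genes, and 8 of them passed the adjusted test. They summed to 243 to 606 FPKM in DKO/hA1 chow and 1501 to 2292 in DKO/hA1 Western diet. Their part in the members' values was not tested.

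The members with the smallest p after these did not pass. Rps15a, a small subunit protein, was at 4.25, 2.96, 3.75 and 3.81 FPKM in DKO chow, 3.87, 5.06 and 3.70 in DKO Western diet, 3.09 and 4.25 in DKO/hA1 chow, with 4.92, 4.36 and 5.17 in DKO/hA1 Western diet (0.33 ± 0.16, limma adjusted p 0.412). Rps25, a small subunit protein used by some viral entry sites, was at 112, 99.5, 112 and 98.6 FPKM in DKO chow, 101, 125 and 115 in DKO Western diet, 87.4 and 104 in DKO/hA1 chow, with 119.5, 106 and 119.9 in DKO/hA1 Western diet (0.27 ± 0.15, limma adjusted p 0.466). Rpl12, part of the stalk base, had 187, 164, 201 and 217 FPKM in DKO chow, 192, 169 and 180.0 in DKO Western diet, 228 and 203 in DKO/hA1 chow, with 193, 179.6 and 190.0 in DKO/hA1 Western diet (-0.19 ± 0.14, limma adjusted p 0.620). In each of the 3 the DKO/hA1 groups did not overlap between diets, while the DKO groups did. Other members, such as Rpl31, also did not overlap between diets in DKO/hA1, and the share over all genes was not taken. Groups of 2 and 3 libraries can separate easily without any effect.

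**Figure D2:**
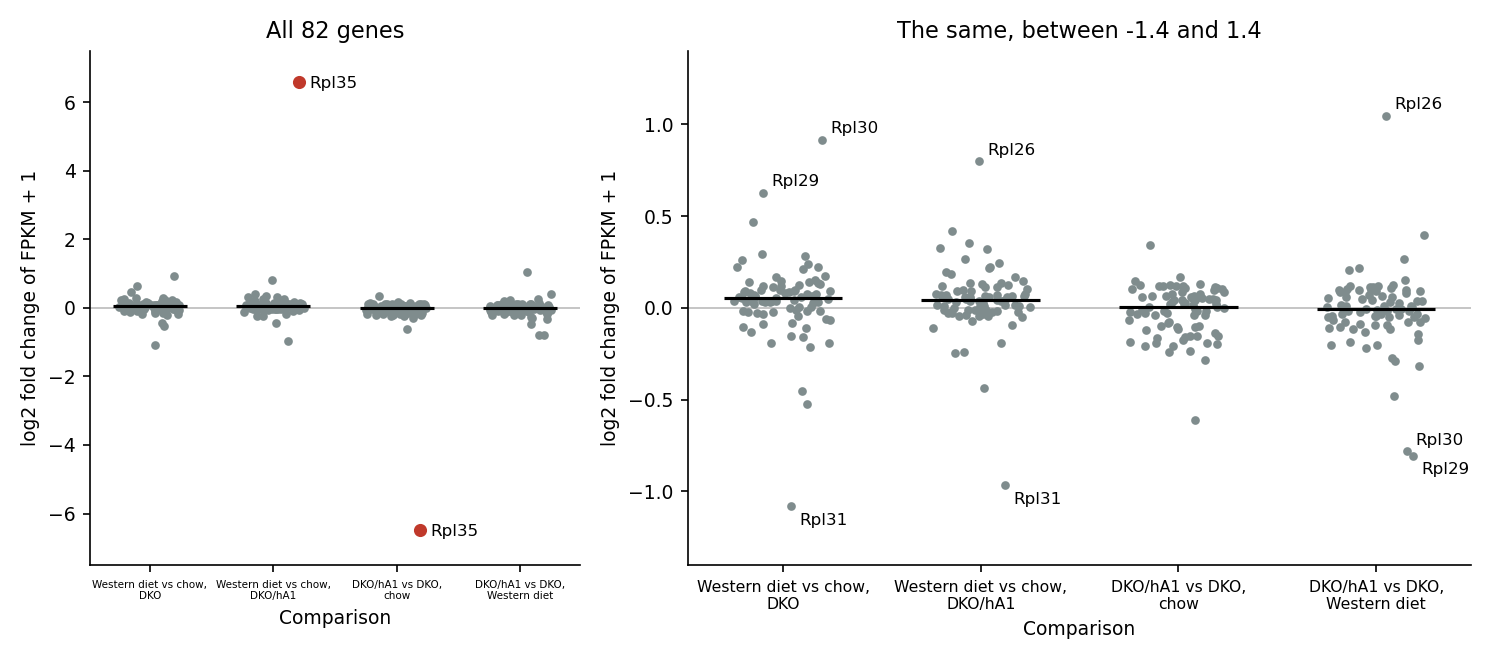
Log2 fold change of FPKM + 1 for each of 82 members in the 4 comparisons (points), with the median as a black bar and called rows in red; the right panel repeats the left between -1.4 and 1.4, which leaves Rpl35 out where it was called. Rpl35 is the only called row, at 6.60 and -6.47, and the medians lie at 0.05, 0.04, 0.00 and -0.01.

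Human APOA1 on chow was associated with a call for 1 member, Rpl35, which was lower, where 0.0779% of all genes were called. It was also the only member at an unadjusted p under 0.05, where 7.43% of all genes were. The median over members was 0.00, with 42 above 0, and for 77 the 95% interval lay within ±1. Rpl17 was among the lower members with the next smallest p. Rpl17, near the exit of the peptide tunnel, was at 40.9, 28.7, 34.8 and 32.7 FPKM in DKO chow, 34.5, 34.5 and 30.4 in DKO Western diet, 27.2 and 31.2 in DKO/hA1 chow, with 37.5, 34.1 and 32.4 in DKO/hA1 Western diet (-0.24 ± 0.13, limma adjusted p 0.737). Its values overlapped between genotypes. The smallest p among higher members belonged to Rpl12, Rpl23a and Rps27, none of which passed.

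On Western diet, human APOA1 was associated with no call among members, where 0.0% of all genes were called. Only Rpl29 had an unadjusted p under 0.05, where 5.85% of all genes did. The median over members was -0.01, with 39 above 0, but 0.18 with 73 above 0 under equal totals, where the median of all genes moved to 0.16. For 77 members the 95% interval lay within ±1. Rpl7l1, a duplicated gene that resembles Rpl7, was at 17.3, 18.5, 19.5 and 18.2 FPKM in DKO chow, 20.7, 20.4 and 23.6 in DKO Western diet, 16.5 and 18.8 in DKO/hA1 chow, with 18.9, 17.7 and 17.4 in DKO/hA1 Western diet. On Western diet the genotypes did not overlap (-0.20 ± 0.10, limma adjusted p 0.882). Other members, such as Rpl29, also did not overlap there, and the share over all genes was not taken. Rpl39, a short large subunit protein, had the smallest p among higher members together with Rpl22l1 and Rps15a. It was at 160.3, 145, 172 and 155 FPKM in DKO chow, 138, 189.7 and 144 in DKO Western diet, 118 and 167 in DKO/hA1 chow, with 173, 157 and 197 in DKO/hA1 Western diet, with overlap (0.22 ± 0.17, limma adjusted p 0.993).

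Rpl35, a large subunit protein beside the peptide exit, carried the calls in both of its comparisons. It stood at 145, 126, 166 and 161 FPKM in DKO chow, 171, 185 and 191 in DKO Western diet, 1.30 and 0.284 in DKO/hA1 chow, with 164, 147 and 186 in DKO/hA1 Western diet. Both DKO/hA1 chow libraries were far below all the others. The DKO groups did not overlap between diets, but the difference did not pass (0.22 ± 0.18, limma adjusted p 0.673). The log2 change was 6.60 ± 0.21 for diet with human APOA1 (limma adjusted p 2.22e-08) and -6.47 ± 0.20 for human APOA1 on chow (limma adjusted p 1.52e-08). The diet by genotype term was 6.38 ± 0.28 (limma adjusted p 6.56e-07). It was the only member called for that term, where 0.0173% of all genes, 2 in number, were called. At an unadjusted p under 0.05 it was joined by Rpl29 (-0.74 ± 0.27, limma adjusted p 0.965), where 4.9% of all genes were. For human APOA1 averaged over diets, Rpl35 was again the only member called, at -3.28 ± 0.14 (limma adjusted p 4.73e-07), where 0.113% of all genes were called. That average rests on the 2 DKO/hA1 chow libraries, since on Western diet Rpl35 had means of 182 FPKM in DKO and 166 in DKO/hA1. Rpl29 (-0.44 ± 0.14, limma adjusted p 0.417) was the other member at an unadjusted p under 0.05, where 7.93% of all genes were.

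Of the coding words of Rpl35, 96.1% occur in other genes. Gm2000, whose coding sequence is printed above beside that of Rpl35, is not analysed here, and no copy row was matched to Rpl35, so no sum with a copy was made. The median deviation of all members from their own medians was -0.05 and 0.00 on the log2 scale in DKO/hA1 chow 1 and 2. The former was the second lowest of the 12 libraries, with 59 of 82 members below their median. Rpl35 met the rule that marks a row for uncertain reads, a library below an eighth of the row's median, and so did Rpl26 with its values of 0. Whether fragments of Rpl35 were assigned elsewhere in that group was not tested.

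Rpl31, a large subunit protein at the tunnel exit, was lower on Western diet in both genotypes. It stood at 56.8, 31.9, 59.4 and 53.1 FPKM in DKO chow, 22.2, 27.1 and 22.3 in DKO Western diet, 47.6 and 50.5 in DKO/hA1 chow, with 29.0, 22.9 and 22.4 in DKO/hA1 Western diet. Every chow library was above every Western diet library. Taken alone, neither genotype passed: the change was -1.08 ± 0.18 in DKO (limma adjusted p 0.0576) and -0.96 ± 0.22 in DKO/hA1 (limma adjusted p 0.0533). Averaged over genotypes, a comparison added with earlier results known, it was -1.02 ± 0.14 (limma adjusted p 0.00531). There, 2 members were called, Rpl35 higher, through the 2 low DKO/hA1 chow libraries, and Rpl31 lower, where 4.11% of all genes were called. With Rpl30 and Rps19 they made 4 members at an unadjusted p under 0.05, where 19.5% of all genes were.

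The row Rpl31-ps12 moved the opposite way. It was listed at 0 in 5 chow libraries and at 0.188 FPKM in the remaining one, DKO chow 4, and stood at 207, 198, 188, 249.7, 195 and 183 FPKM in the 6 Western diet libraries. Added to Rpl31, the sum was 31.9 to 59.4 FPKM on chow and 206 to 279 on Western diet. The direction then reversed, to 2.09 ± 0.18 in DKO and 2.22 ± 0.22 in DKO/hA1. Rpl31-ps12 makes up most of the sum on Western diet and almost none on chow. The reversal therefore restates that row and is no separate result on Rpl31. All coding words of Rpl31 occur in other genes, and 71.8% of them in Rpl31-ps12. From chow to Western diet in DKO, the mean of Rpl31 went from 50.3 to 23.8 FPKM and that of Rpl31-ps12 from 0.047 to 198. In DKO/hA1 the means went from 49.1 to 24.8 FPKM and from 0 to 209. Where the fragments of Rpl31-ps12 came from was not tested. Whether a different assignment of fragments accounts for the lower Rpl31 was not tested either. Without DKO chow 2, Rpl31 on its own passed in both genotypes (limma adjusted p 0.00587 in DKO and 0.01405 in DKO/hA1), and without DKO/hA1 Western diet 3 it passed in DKO (limma adjusted p 0.0329).

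**Figure D3:**
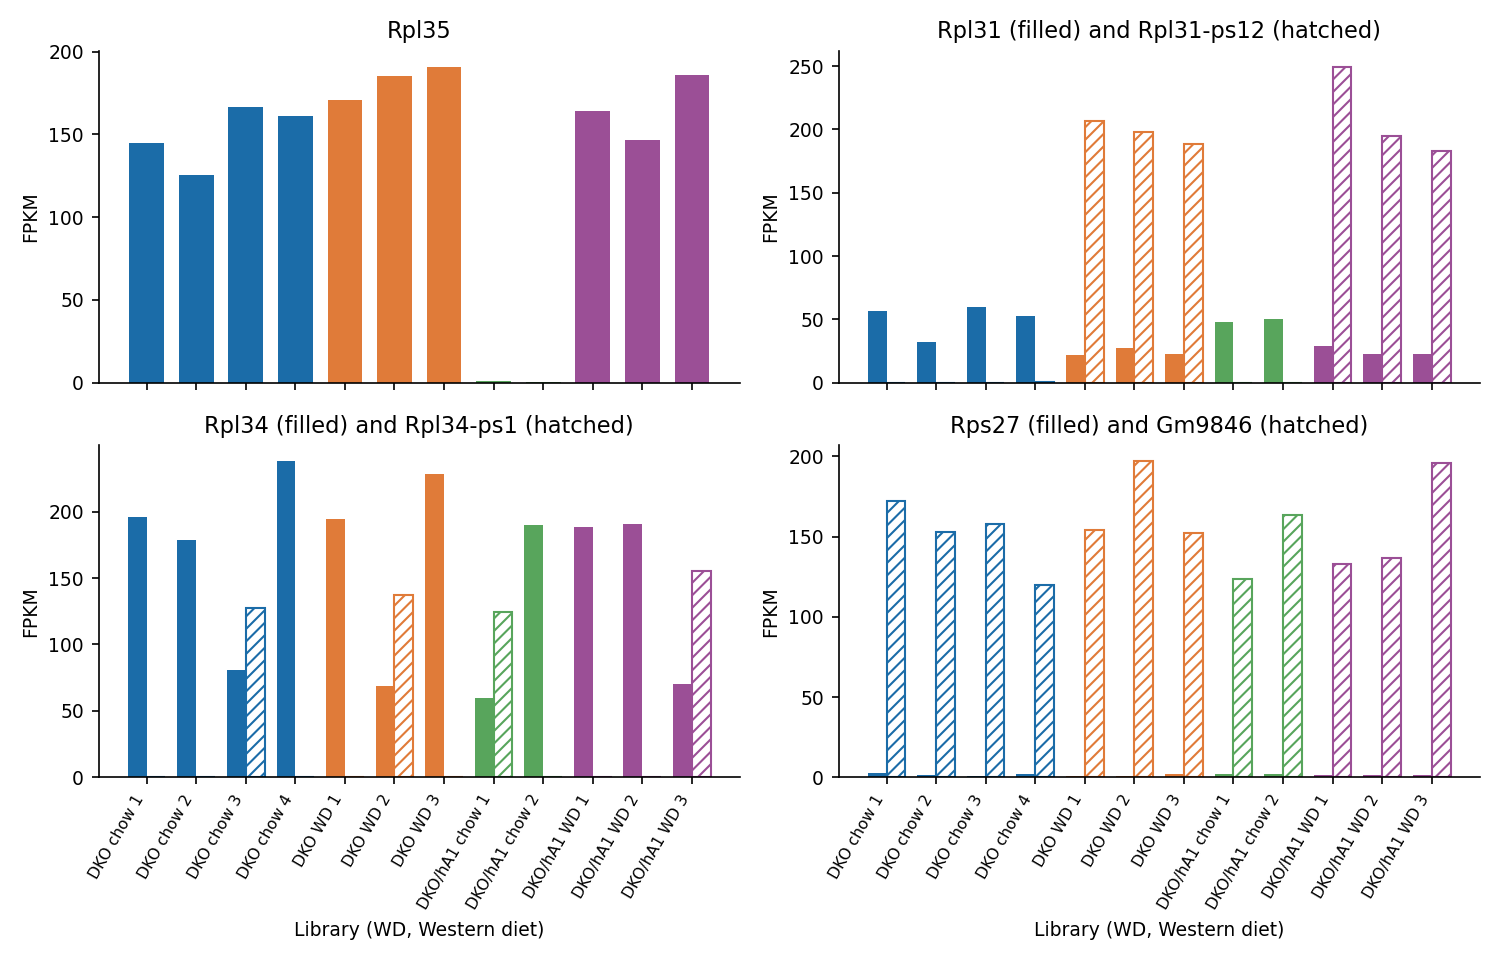
FPKM of Rpl35, Rpl31, Rpl34 and Rps27 (filled bars) and of the copy rows Rpl31-ps12, Rpl34-ps1 and Gm9846 (hatched bars) in each of 12 libraries, coloured by group. Rpl35 is near 0 in DKO/hA1 chow, Rpl31-ps12 appears at 183 to 249.7 FPKM on Western diet, and Rpl34-ps1 appears in 4 libraries, 1 of each group, where Rpl34 is lowest.

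Rpl34, of the large subunit, was split in another way. It stood at 196, 179, 80.6 and 238 FPKM in DKO chow, 195, 69.0 and 228 in DKO Western diet, 59.9 and 189.7 in DKO/hA1 chow, with 188, 190.3 and 70.0 in DKO/hA1 Western diet. In each group 1 library was low. In exactly those 4 libraries Rpl34-ps1 was at 127, 138, 125 and 155 FPKM, and in the other 8 it was listed at 0. The sum ran from 179 to 238 FPKM, and the coefficient of variation fell from 42.4% for Rpl34 to 9.41% for the sum. The 95% interval of the diet effect in DKO was -1.49 to 1.06 for the row alone. For the sum the change was -0.03 ± 0.13.

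Among the lowest rows, several had copy rows that stood much higher. Rps27, a zinc-binding small subunit protein, was at 2.58, 1.25, 0.666 and 2.02 FPKM in DKO chow, 1.10, 0.674 and 2.32 in DKO Western diet, 2.23 and 2.22 in DKO/hA1 chow, with 1.31, 1.49 and 1.35 in DKO/hA1 Western diet. Gm9846, which holds 100% of its coding words, ranged from 119.9 to 197 FPKM, far above Rps27 in every library. Rpl26, which contacts the large subunit RNA, was at 6.57, 0, 4.29 and 16.5 FPKM in DKO chow, 7.12, 0 and 5.95 in DKO Western diet, 3.76 and 3.16 in DKO/hA1 chow, with 9.85, 2.48 and 11.2 in DKO/hA1 Western diet. It was listed at 0 in DKO chow 2 and DKO Western diet 2, while Gm15772 lay between 193 and 311 FPKM in all libraries. The coefficient of variation was 81.3% for Rpl26 and 12.2% for the sum. Gm15772 makes up nearly all of that sum and had 12.2% on its own, so the sum cannot show where fragments of Rpl26 were assigned. The sum differed by 0.15 ± 0.14 between diets in DKO and 0.23 ± 0.16 in DKO/hA1.

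Rps15a, at 2.96 to 5.17 FPKM, had Rps15a-ps4 at a mean of 78.7 FPKM and Rps15a-ps6 at 24.1 FPKM. Rpl21, the lowest member, was at 1.27, 0.595, 1.78 and 1.32 FPKM in DKO chow, 1.15, 1.53 and 1.34 in DKO Western diet, 1.17 and 1.45 in DKO/hA1 chow, with 1.54, 1.30 and 1.29 in DKO/hA1 Western diet. Its copy row BC004004 was at 12.7 to 22.3 FPKM, higher in every library. Of the 11 members under a mean of 30 FPKM, 6 had a copy row, and of the 71 at or above it, 7 had one. For these rows a low level of the message and assignment of its fragments to the copy cannot be told apart. With all listed copies added, 1 member was called for diet in DKO (Rpl31) and 2 in DKO/hA1 (Rpl31 and Rpl35). These calls of Rpl31 restate the values of Rpl31-ps12, most of that sum on Western diet.

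Rps24, Rps26 and Rpl32 each had a single copy row above 40 FPKM. Rps24 was at 68.5 to 87.4 FPKM with Gm9320 at 97.1 to 128, Rps26 at 158 to 219 FPKM with Gm6654 at 46.2 to 67.0, and Rpl32 at 179.6 to 241 FPKM with Gm6251 at 52.9 to 68.8. The coefficients of variation of the genes were 7.76%, 7.97% and 7.56%. None was called, alone or summed with its copy, in any of the 4 comparisons.

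Duplicated members differed widely from the genes they resemble. Rpl36al, an intron-free relative of Rpl36a, had a mean of 279.6 FPKM, with 269, 226, 278 and 307 FPKM in DKO chow, 259, 291 and 386 in DKO Western diet, 264 and 279 in DKO/hA1 chow, with 316, 238 and 242 in DKO/hA1 Western diet. Rpl36a had a mean of 130.4 FPKM, with 125, 118, 133 and 145 FPKM in DKO chow, 119, 123 and 139 in DKO Western diet, 141 and 129 in DKO/hA1 chow, with 134, 122 and 137 in DKO/hA1 Western diet. Rpl36al was higher in 12 of 12 libraries, and its highest value was in DKO Western diet 3. All coding words of either occur in other genes. Rps27l had a mean of 142 FPKM, with 125, 149, 146 and 145 FPKM in DKO chow, 146, 143 and 186 in DKO Western diet, 122 and 141 in DKO/hA1 chow, with 137, 130.3 and 129 in DKO/hA1 Western diet. It exceeded Rps27 in 12 of 12 libraries, but Rps27 is the row whose copy Gm9846 averaged 155 FPKM. Rpl22 was at 34.5, 37.3, 34.1 and 30.4 FPKM in DKO chow, 34.4, 35.7 and 31.1 in DKO Western diet, 32.2 and 35.2 in DKO/hA1 chow, with 34.8, 31.8 and 31.9 in DKO/hA1 Western diet, a narrow range, and Rpl22l1 exceeded it in 3 libraries.

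Rpl7, at 209.9, 179, 205 and 162 FPKM in DKO chow, 174, 224 and 198 in DKO Western diet, 183 and 215 in DKO/hA1 chow, with 222, 193 and 208 in DKO/hA1 Western diet, was above Rpl7l1 in every library. Rps4x was at 254, 206, 221 and 207 FPKM in DKO chow, 221, 269 and 226 in DKO Western diet, 215 and 254 in DKO/hA1 chow, with 237, 245 and 254 in DKO/hA1 Western diet. Rps4y2 was lower in every library, at 6.47, 5.71, 10.5 and 16.4 FPKM in DKO chow, 19.4, 8.44 and 9.21 in DKO Western diet, 7.88 and 7.86 in DKO/hA1 chow, with 12.1, 5.68 and 6.46 in DKO/hA1 Western diet, with DKO Western diet 1 and DKO chow 4 highest and with groups that overlapped. Rpl3l, Rpl10l and Rpl39l, known from muscle and testis, were at or near 0. Rpl3, which Rpl3l resembles, was at 109, 89.8, 94.8 and 105 FPKM in DKO chow, 95.1, 117 and 109 in DKO Western diet, 109.7 and 109.8 in DKO/hA1 chow, with 128, 112 and 97.2 in DKO/hA1 Western diet, with overlap between groups. None of the 5 duplicated members was called in any comparison.

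The members varied little between libraries of a group. The median residual SD was 0.14 on the log2 scale over members and 0.20 over all genes tested. It was 0.19 over 6347 other genes with a mean between 2.53 and 8.16 on that scale, where most members lie. Levels were not matched within that range, and the members' median level (130.2 FPKM) was far above that of all genes (6.36 FPKM). These values therefore do not compare the spread at equal level. DKO chow 2, the library of lowest relative depth, was the lowest of the 12 for 52 of 82 members in FPKM before scaling. After scaling, the median member lay 0.13 below its own median there (-0.13). The 2 measures differ, since the scaling factor was 0.933 for DKO chow 2 and 1.04 for DKO Western diet 3. The other libraries had median deviations between -0.05 and 0.08. DKO Western diet 3, of nearly the same relative depth (0.551), lay at 0.05 and was the highest library for 21 members in FPKM before scaling. It is of another group, and whether depth accounts for the values of DKO chow 2 was not tested.

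Coding length set members apart in some libraries. In DKO chow 4 the deviation and the coding length had a Spearman coefficient of -0.48 over the matched members, a description across genes of 1 library. There the 18 members under 350 coding bases had a median deviation of 0.17 and the 28 with 550 or more had -0.06. The coefficient was -0.35 in DKO chow 3, with medians of 0.06 and -0.003, and -0.25 in DKO Western diet 3, with 0.13 and 0.04. The order was opposite in other libraries, such as DKO chow 2 (-0.18 and -0.10) and DKO/hA1 Western diet 3 (-0.03 and 0.08). Whether fragment size or RNA quality differed between these libraries was not tested.

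**Figure D4:**
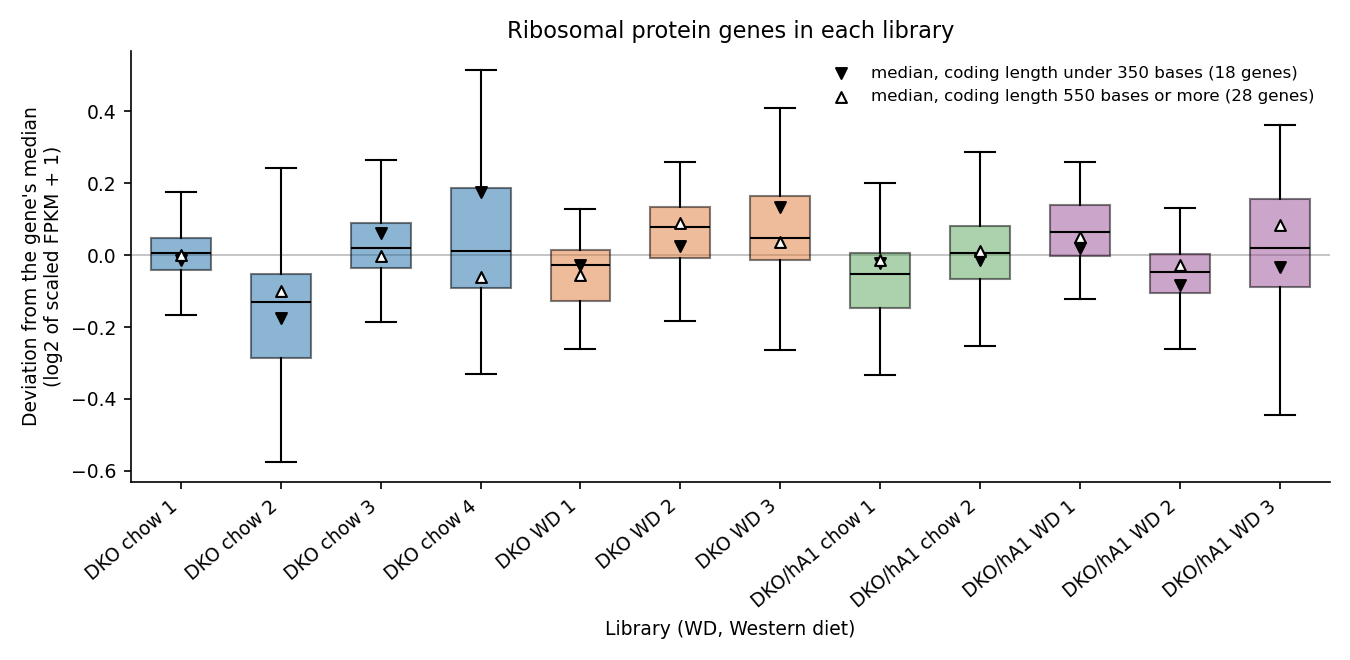
Deviation of each of 82 members from its median over 12 libraries, on the log2 scale, as boxes (quartiles, with lines to the farthest value that is not an outlier) coloured by group; triangles give the medians of 18 short and 28 long genes. DKO chow 2 lies lowest at -0.13, and short genes lie above long ones in DKO chow 4, at 0.17 against -0.06.

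Related lists were described in the same way, and none had a call in the 4 comparisons. A list of 20 genes taken to have TOP messages held translation factors, such as Eef1a1 and Eef2, and other genes, such as Npm1, Nap1l1 and Hnrnpa1. For diet without and with human APOA1, these 20 genes had medians of 0.03 and 0.06. The 40 genes of ribosome assembly, such as Fbl and Nop56, had -0.06 and 0.01. The 19 genes that control ribosomal protein messages, mTOR and its partners among them, had -0.10 and -0.03. The members' medians were 0.05 and 0.04, and the difference between the lists was not tested.

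The mitochondrial ribosomal proteins, which build a separate ribosome for the mitochondrial genome, had no call either. Over 76 genes the median was -0.11 for human APOA1 on chow, with 15 above 0, and -0.11 on Western diet, with 13 above 0, but 0.07 with 55 above 0 on Western diet under equal totals. Relative to the median of all genes, it was -0.11 and -0.12, and -0.10 and -0.09 under equal totals. These 2 comparisons share no library. For diet the medians were 0.01 and 0.02. The cytosolic members had 42 and 39 of 82 above 0 in the genotype comparisons, and the difference between the lists was not tested.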

How the data were processed

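Total liver RNA was made into Illumina RNA-seq libraries, after samples of low RNA integrity were discarded, per the labels' protocols. Per the submitters' processing notes, the authors used TopHat 1.3.2, Bowtie 0.12.8, SAMtools 0.1.19 and Cuffdiff with build mm10. The annotation, the strand setting and the handling of reads with several matches are not given in the sources used here, and the last can move values between a gene and its copies. The deposited table holds FPKM, the authors' estimate, without counts, so values carry no counting interval or floor.

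Small RNA rows (777) and 21 rows listed at 0 throughout a group but at 1 FPKM or more throughout another were left out of the tests, Rpl31-ps12 and Alb among them. Genes with at least 1 FPKM in 2 libraries (11546) were scaled between libraries by trimmed means of log ratios without weights, and 1 was added before the log2. R 4.3.3 with limma 3.58.1 fitted the 4 groups in 1 model with trended, robust variance, and calls were two-sided at a Benjamini-Hochberg adjusted p under 0.05 over all genes tested. Fits were tested on simulated data. Sequence words came from GENCODE M21, start windows from RefSeq, with Python 3.11.15, pandas 2.3.3 and Biopython 1.88. The members and lists were chosen with earlier results of these data known. Values per library are given for members that were called, marked, extreme in level, of the stalk, duplicated with the gene they resemble, or among the 3 smallest p-values per direction in a comparison. Some members are not reported here by name. Adding copies by shared sequence was chosen after seeing the data. Replicate numbers did not pair the libraries.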

Additional observations from a re-analysis of the deposited data

Results flagged for a closer look

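Within DKO chow, Rps18 at 264.3 FPKM and Rps19 at 66.6 FPKM in replicate 2 stood far below the other 3 libraries of the group, and Rps27l at 124.8 FPKM in replicate 1 stood below the other 3. Each was the lowest value and lay apart by more than Dixon's 95% critical value for 4 samples. In this group 31 quantities were examined in this way and 3 were singled out, where chance alone singles out about 1 in 20. Replicate 2 is the library of lowest relative depth (0.514), and DKO Western diet 3, at 0.551, stood at 377 FPKM for Rps18 and 122 FPKM for Rps19, above these values. That library is of another group, and whether depth accounts for the low values was not tested. For Rpl35 the effect of Western diet differed between genotypes, with a diet by genotype term of 6.38 on the log2 scale (limma adjusted p 6.56e-07), which rests on 1.30 and 0.284 FPKM in the 2 DKO/hA1 chow libraries.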

How the results depend on the processing

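Under equal FPKM totals the members' medians were -0.168, -0.056, 0.184, 0.087, -0.110 and 0.132 for diet without and with human APOA1, human APOA1 on Western diet, the diet by genotype term, diet averaged over genotypes and human APOA1 averaged over diets. All-gene calls for diet with human APOA1 were then 39 higher and 30 lower, against 129 and 36. Calls for diet without human APOA1 went from 0 to 1 under equal totals (Rpl31, -1.30) and with copies added by name or by sequence, and those with it from 1 to 2 with copies added. With copies added Rpl31 reversed, to 2.09, 2.22 and 2.15 for diet without, with and averaged over human APOA1, which restates the values of Rpl31-ps12. Leaving out 1 library at a time gave 0 to 1 calls for diet without human APOA1 (1 without DKO chow 2 or DKO/hA1 Western diet 3) and 1 to 2 with it (2 without DKO chow 2), the added row being Rpl31. Counts of called members in the other 5 comparisons did not change under any alternative run, and Rpl35 was called throughout, at 6.19 to 7.82 for diet with human APOA1.

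Libraries with the same replicate number had correlations of -0.285 to 0.447, so this number was not taken to pair them. The labels' descriptions hold further codes that some libraries share, of which the meaning is not given, and no fit used them. Replicate number 4 occurs only in DKO chow. With the replicate block the calls were 0, 1, 1, 0, 1, 2 and 1, as without it, and the medians 0.07, 0.02, 0.05, -0.01, -0.07, 0.06 and 0.02.

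Adding copies by sequence was chosen after seeing the data. Depth limits the low rows most, and DKO chow 2 is the shallowest library. FPKM keep no read totals, so a difference in a row of a few FPKM cannot be set against counting error.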

Other observations

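The 4 libraries in which Rpl34-ps1 was listed above 0 (chow: DKO 3 and DKO/hA1 1, Western diet: DKO 2 and DKO/hA1 3, at 124.8 to 155.1 FPKM) are those whose columns come first within their group in the deposited table. At 10 FPKM or more in those 4 libraries and 0 in the other 8, it was the 1 such row of 23284. The pattern was noticed in these values, and its cause was not tested.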
